A study of Sus scrofa with 4 samples.

Results

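miR-34a and miR-34c are a pair of microRNAs that share a seed, the short stretch near the 5′ end that selects target mRNAs, and that come from separate loci. Their rows were taken by name from the pig hairpin entries of each deposited table. The entries are mir-34a, with 1980 to 7576 reads a library, and mir-34c, with 428 to 6065. Both were listed in all 4 libraries with 1 hairpin entry each, and they are 2 of the 189 miRNAs with a read. Every mature read of either was listed as matching no other entry, so the pair could be counted apart.

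The miR-34 family is known as a direct transcriptional target of the tumour suppressor p53. miR-34a is made from its own transcript, while miR-34c is made together with miR-34b from another. Their shared targets include cyclin-dependent kinases, cyclins, MYC, BCL2 and the deacetylase SIRT1, and the family is known for cell cycle arrest and senescence. In fat, miR-34a is known to be raised in obesity and to oppose browning, while miR-34c and miR-34b are best known from testis and multiciliated epithelium.

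The cells were primary pig vascular stem cells at passage 1, isolated from a back muscle, longissimus dorsi (IVSC), or out of subcutaneous fat (SVSC). Each culture gave 1 library undifferentiated and 1 after MDI, so there were 4 groups with 1 library each, and p-values over animals or cultures cannot be had for a pair of libraries. MDI medium, with IBMX (0.5 mM, which blocks phosphodiesterases), the glucocorticoid dexamethasone (0.25 µM) and insulin (5 mg/l), was given from 2 days after confluence. IBMX and dexamethasone were left out after 3 days, growth medium came back at day 6, and culture went on for 3 or 4 days more, with no statement of which applies to which library. All media held 20% serum, IVSC were plated at a higher density than SVSC, and the labels describe all 4 as adipose-derived although the tissue given for IVSC is muscle. No source used here gives the breed, the age, or whether animals were shared or pooled. The study asked how the miRNAs of adipogenesis compare between both cell types.

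Levels are given in CPM, counts per 1000000: the reads on a hairpin scaled to all miRNA reads of its library. Ranges in parentheses are exact 95% counting intervals, which cover counting error only. A miRNA was called higher or lower when its CPM differed at least 2-fold between libraries with an interval that excluded 1. The libraries held 2573249 to 17937121 miRNA reads, the fewest in SVSC MDI. That library also stood apart in having 55.01% of all listed reads on hairpins, against 70.2% to 77.0% in the others. Each marker list of other cells summed to less than the 262057 to 409082 CPM of the 5 perivascular and mesenchymal markers. Most of the latter sum was miR-143, with 4638069 of the 4763106 reads in IVSC. Only 2045 of these miR-143 reads lay on its listed mature sequence. The 5 skeletal muscle markers summed to 6275 CPM before and 1137 CPM after MDI in IVSC, and to 1853 and 888 CPM in SVSC. In IVSC, miR-206 had 64588 of the 83158 reads before MDI and 2068 after, while miR-133a had 1036 and 1266. In SVSC, miR-1 had 32606 of the 33233 reads before MDI and 1700 after, while miR-133a had 388 and 511. The epithelial list was represented by miR-205 alone, with 2 to 9 reads a library. miR-34b and the miR-449 miRNAs, of the same family and high in multiciliated cells, had no hairpin entry here and are not analysed.

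miR-34a, the best studied member and a repressor of SIRT1, was more abundant after MDI in both cultures. It had 1980 reads in IVSC and 7576 in IVSC MDI, or 149 and 512 CPM. It had 3439 reads in SVSC and 2226 in the shallower SVSC MDI library, or 192 and 865 CPM. Both MDI libraries thus lay above both undifferentiated ones. miR-30c, miR-23b, miR-125a and miR-331 were separated in the same way, but they were picked for a pattern near that of miR-34a. The share of all miRNAs with this separation was not counted. In bulk cultures like these, fewer cells that hold a miRNA and less of it per cell cannot be told apart. The order from high to low was SVSC MDI, IVSC MDI, SVSC and IVSC, and no neighbouring intervals overlapped. By abundance miR-34a moved from rank 89 of 187 detected miRNAs in IVSC to rank 55 of 186 in IVSC MDI, and from rank 71 of 182 in SVSC to rank 44 of 181 in SVSC MDI.

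miR-34c, encoded apart from miR-34a, had another order. It stood at 2116 reads in IVSC and 6065 in IVSC MDI, or 159.7 and 409.5 CPM. It stood at 5596 reads in SVSC and 428 in SVSC MDI, or 312 and 166 CPM. The higher library was thus the MDI library in IVSC and the undifferentiated library in SVSC. The order from high to low was IVSC MDI, SVSC, SVSC MDI and IVSC. The lowest pair, SVSC MDI and IVSC, did not differ beyond counting error, with a ratio of 1.04 (0.937 to 1.16).

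**Figure D1:**
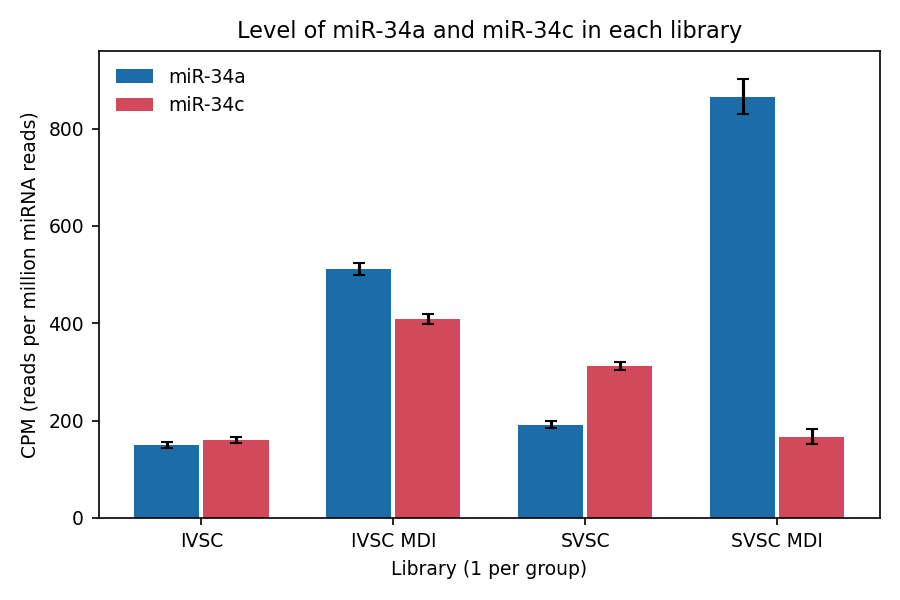
CPM (scaled to the miRNA reads of a library, vertical axis from 0) of miR-34a (blue) and miR-34c (red) in the 4 libraries, with bars for the single library of each group and error lines for exact 95% counting intervals. miR-34a stands at 512 CPM in IVSC MDI and 865 CPM in SVSC MDI, above 149 and 192 CPM in IVSC and SVSC, while miR-34c stands at 409.5 CPM in IVSC MDI and at 166 CPM in SVSC MDI.

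The question in each culture was which miRNAs changed with adipogenic induction. In IVSC both members rose: miR-34a 3.42-fold (3.26 to 3.60) and miR-34c 2.56-fold (2.44 to 2.70). Of 152 miRNAs tested in this comparison, 16.4% were called higher and 23.7% lower. miR-34a ranked 8 and miR-34c 14 from the top by ratio, against a median log2 ratio of -0.04 over all 152. The same comparison held the fall of the summed skeletal muscle markers given above, mostly a fall of miR-206. The part of these markers in the ratios was not tested.

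In SVSC the members parted. miR-34a rose 4.51-fold (4.28 to 4.76), in a comparison where 34.2% of 146 miRNAs were called higher, and ranked 21 from the top. The ratio of miR-34c was 0.533 (0.482 to 0.588), its interval below 1 and its value short of 2-fold, so it was not called. It ranked 36 from the lowest, against a median log2 ratio of 0.41 over all 146, and 21.9% of the 146 were called lower. The call of miR-34c rests on the scaling, since its ratio was 0.376 to 0.404 under the other 4 scalings and was then called lower. Those scalings moved every log2 ratio of this comparison by -0.50 to -0.40. On mature reads, scaled to their own total, the ratio was 0.652 and was not called.

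**Figure D2:**
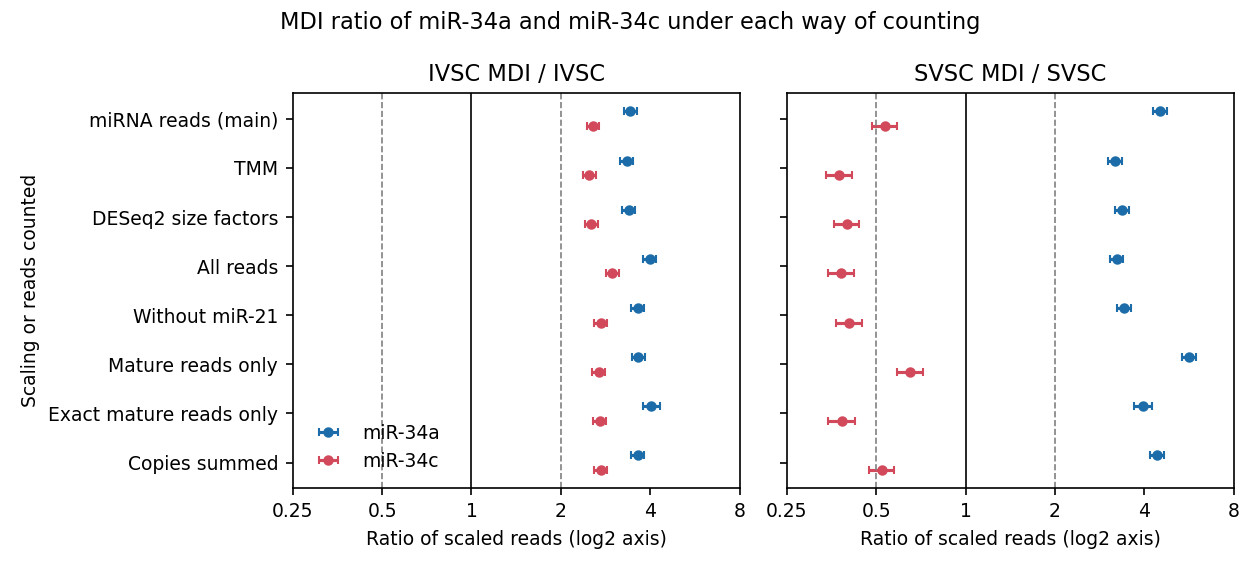
Ratio of scaled reads, MDI library over undifferentiated library (horizontal log2 axis), for miR-34a (blue) and miR-34c (red) in IVSC (left) and SVSC (right), under each scaling or choice of reads; error lines are exact 95% counting intervals and dashed lines mark 2-fold. Every point of miR-34a and both members in IVSC lie above 2-fold, and the points of miR-34c in SVSC lie below 1, from 0.376 to 0.652.

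The MDI responses of both cultures were set against each other for each member. The log2 ratio of miR-34c was 1.36 in IVSC and -0.91 in SVSC, so that the response in SVSC was smaller by 2.27 (SVSC minus IVSC, -2.27; -2.43 to -2.11). This was the third lowest difference of 155 miRNAs, whose median was 0.53, and 12.3% of the 155 had a response smaller in SVSC by at least 1 on the log2 scale with an interval that excluded 0. Under the 7 other ways of scaling or counting the difference ran from -2.97 to -2.04. For miR-34a the log2 ratios were 1.78 and 2.17, and the difference was 0.40 (0.29 to 0.50). That difference changed sign with the scaling, from -0.31 under all reads to 0.63 on mature reads, so no direction can be given for it. A rise of at least 2-fold in both cultures was seen for 13.3% of 143 miRNAs, miR-34a among them. A rise of at least 2-fold in IVSC beside a ratio in SVSC whose interval lay below 1 was seen for 1 of the 143 (0.699%), which was miR-34c. Under each of the other 4 scalings miR-1285 had this pattern as well, and miR-34c alone was past 2-fold in both directions. The pattern set no size for SVSC and left out smaller rises in IVSC. Scaled to miRNA reads, 0 of the 143 both rose at least 2-fold in IVSC and fell at least 2-fold in SVSC. The pattern has the directions of miR-34c itself, so its count is a description and no test. On total hairpin reads, miR-29b (1.68 in IVSC and 0.677 in SVSC) and miR-30d (1.42 and 0.418) also had opposite directions, with intervals that excluded 1. They are examples only. Others moved in opposite directions as well, miR-362 among them (29.4 to 46.8 CPM in IVSC, 38.5 to 28.0 CPM in SVSC). The share of all miRNAs with opposite directions of any size was not counted.

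**Figure D3:**
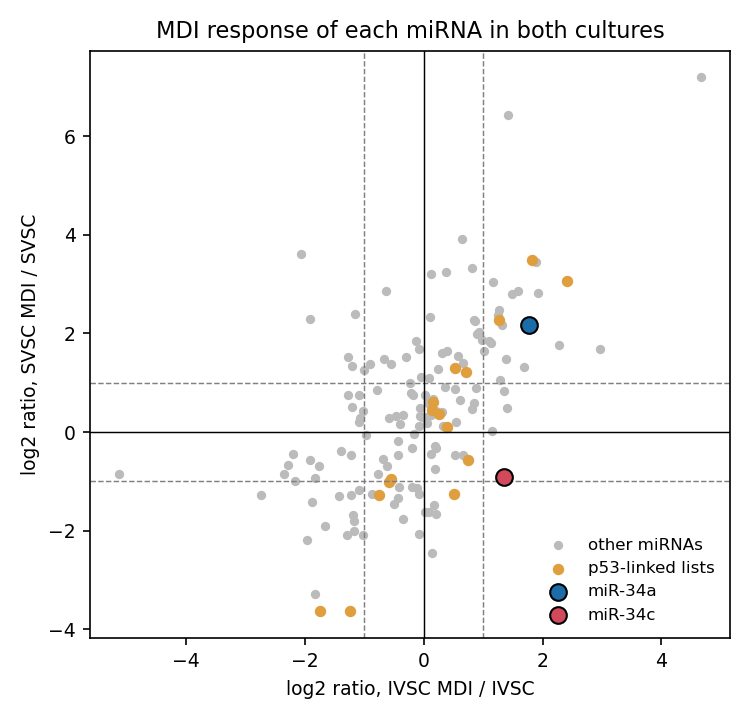
log2 ratio with MDI in IVSC (horizontal) and in SVSC (vertical) for each of 155 miRNAs that reached 10 CPM in a library, scaled to miRNA reads; orange points are the p53-linked lists described in the text and dashed lines mark 2-fold. miR-34a (blue) lies at 1.78 and 2.17, among the miRNAs higher in both cultures, and miR-34c (red) at 1.36 and -0.91.

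A fit over all 4 libraries asked for the MDI effect that both cultures share. It used edgeR's quasi-likelihood test with culture as a second factor, which leaves 1 residual degree of freedom. Its spread is that left by the additive model rather than that between animals. That spread was pooled wholly over the tested miRNAs (infinite prior degrees of freedom), so the residual of a single miRNA carried no weight of its own. miR-34a was higher with MDI in both cultures, with a log2 ratio of 1.81 (SE 0.59, edgeR adjusted p = 0.033). In that fit 6.15% of 179 miRNAs were called higher and 4.47% lower. miR-34c had a log2 ratio of 0.06 (SE 0.67, edgeR adjusted p = 0.978), with responses of opposite sign in the cultures behind it. The call of miR-34a was lost without the culture factor (adjusted p = 0.130) and kept under the other 4 alternatives, DESeq2 among them (adjusted p = 0.00323 to 0.0452).

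Origin was compared before and after induction, with the same 4 libraries used again, so these ratios share libraries with the MDI ratios. Before MDI, miR-34a had a ratio of 1.28 (1.21 to 1.36) in SVSC against IVSC and miR-34c one of 1.95 (1.86 to 2.06), neither called, where 7.43% of 148 miRNAs were called higher and 20.9% lower. That of miR-34c was near the threshold, and it was called higher at 2.22 to 2.52 under the other 4 scalings. After MDI, miR-34a had a ratio of 1.69 (1.61 to 1.77) in SVSC MDI against IVSC MDI and was not called. miR-34c was 2.46-fold lower in SVSC MDI (2.23 to 2.72), where 10.2% of 147 miRNAs were called lower and 17.7% higher, and its ratio of 0.406 ranked 12 from the lowest. miR-34c was thus the more abundant in SVSC before MDI and in IVSC after it. The edgeR fit gave shared origin effects with log2 ratios of 0.72 for miR-34a (SE 0.58, adjusted p = 0.852) and -0.0034 for miR-34c (SE 0.71, adjusted p = 0.996), in a fit that called 0.559% of 179 miRNAs higher in SVSC and 2.23% lower.

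The balance of the pair within a library needs no scaling between libraries. miR-34a held 48.3% of the reads of both in IVSC (46.8% to 49.9%) and 55.5% in IVSC MDI (54.7% to 56.4%). It held 38.1% in SVSC (37.1% to 39.1%) and 83.9% in SVSC MDI (82.4% to 85.3%). SVSC MDI was thus the library with the highest share of miR-34a, and SVSC the one with the lowest. The ratio of miR-34a to miR-34c reads was 0.936 in IVSC and 1.25 with MDI, and 0.615 in SVSC and 5.20 with MDI. With MDI it was 1.33-fold higher in IVSC (1.24 to 1.43) and 8.46-fold higher in SVSC (7.56 to 9.49). These are ratios of reads and not of molecules, since ligation and PCR can favour one sequence over another. On mature reads the changes were 1.35-fold and 8.66-fold.

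Both members together had 309 CPM before and 921 CPM after MDI in IVSC, and 504 and 1031 CPM in SVSC. This sum takes all hairpin reads, inexact ones included, and leaves out miR-34b. It is thus not a measure of the seed supplied by these loci, and the sum on exact reads was not taken. The sum was 2.98-fold higher with MDI in IVSC (2.88 to 3.09), and 2.90-fold to 3.47-fold higher under the other 4 scalings. In SVSC it was 2.05-fold higher with MDI (1.96 to 2.14), and short of 2-fold under the other 4 scalings (1.44-fold to 1.55-fold). In both cultures the sum was thus higher after MDI under all 5 scalings, in SVSC through miR-34a alone. The sum in SVSC MDI against IVSC MDI had a ratio of 1.12 (1.07 to 1.17), and of 0.781 to 1.09 under the other 4 scalings.

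How far same-seed miRNAs can part was read from 78 pairs in 22 seed families, which were written down after the data had been seen and carry no test. In SVSC the log2 ratios of miR-34a and miR-34c with MDI differed by 3.08, which ranked 11 of the 78 pairs, whose median difference was 1.05. Larger differences were seen for miR-30b and miR-30d (4.71) and for miR-99a and miR-100 (4.06), among others. In IVSC the pair differed by 0.42, rank 51 of 78, with a median of 0.63. The distance of miR-34a from miR-34c was thus within the range of other families in both cultures. Pairs of a family share members, so the ranks depend on family size, and all hairpin reads were used.

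The reads of each hairpin were listed by the part they cover. Nearly all reads of both lay on the mature miRNA. They made up 97.3% of miR-34a reads before and 98.6% after MDI in IVSC, and 97.6% and 98.6% in SVSC. For miR-34c they made up 99.6% and 99.5% in IVSC, and 99.6% and 98.4% in SVSC. The star column was 0 for both in all 4 libraries. Since 9 of 207 hairpin entries had any star read, a 0 there may mean that no star sequence was annotated, and passenger reads would then be listed with the rest of the hairpin. Reads on the rest of the hairpin numbered 54, 106, 83 and 31 for miR-34a and 8, 28, 23 and 7 for miR-34c.

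The rest of the hairpin of miR-34a took a smaller share after MDI in both cultures. It had 2.73% of the reads in IVSC and 1.40% in IVSC MDI, with an odds ratio of 0.506 (0.360 to 0.719). It had 2.41% in SVSC and 1.39% in SVSC MDI, with an odds ratio of 0.571 (0.364 to 0.876). For miR-34c the share was 0.378% and 0.462% in IVSC and IVSC MDI, which did not differ beyond counting error (odds ratio 1.22; 0.542 to 3.11). In SVSC and SVSC MDI it was 0.411% and 1.64% (odds ratio 4.03; 1.45 to 9.77), resting on 23 and 7 reads. Of all miRNA reads, 61.4% were mature in IVSC and 58.6% in IVSC MDI, and 71.2% in SVSC and 57.5% in SVSC MDI. How many other miRNAs had a smaller share on the rest of the hairpin after MDI was not counted.

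Reads that match the mature sequence exactly split the pair most clearly. For miR-34a they were 57.7% of mature reads in IVSC (55.5% to 59.96%) and 63.1% with MDI (62.0% to 64.2%), against 57.5% in SVSC (55.8% to 59.2%) and 65.7% with MDI (63.7% to 67.7%). For miR-34c they were 99.6% in IVSC (99.2% to 99.8%) and 98.8% with MDI (98.5% to 99.1%), against 99.4% in SVSC (99.1% to 99.5%) and 95.01% with MDI (92.5% to 96.9%). miR-34c had the highest exact share in IVSC of the 92 miRNAs with at least 100 mature reads in every library, whose median was 57.01%. No source used here says whether the other reads differ in their ends or in their bases. The exact share of miR-34a did not differ between both undifferentiated libraries beyond counting error (odds ratio 0.990; 0.882 to 1.11). It was 5.36 points higher with MDI in IVSC and 8.26 points higher in SVSC, with odds ratios of 1.25 (1.13 to 1.39) and 1.42 (1.27 to 1.59). A rise of at least 5 points in both cultures, a threshold set after the data had been seen, was found for 12.0% of the 92 miRNAs, and a drop of that size for 17.4%. For miR-34c the inexact reads numbered 9, 70, 36 and 21, and the exact share was lower with MDI, by a change of -0.733 points in IVSC (odds ratio 0.366; 0.160 to 0.736) and of -4.34 points in SVSC (odds ratio 0.124; 0.0697 to 0.226). A lower exact share in both cultures, of any size, was seen for 45.7% of the 92, and a higher one for 25%. The share of inexact reads sets which member is called the more abundant in IVSC MDI. On exact reads the ratio of miR-34a to miR-34c was 0.790 there, against 1.25 on all reads, and it was 0.530 in IVSC, 0.348 in SVSC and 3.61 in SVSC MDI.

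**Figure D4:**
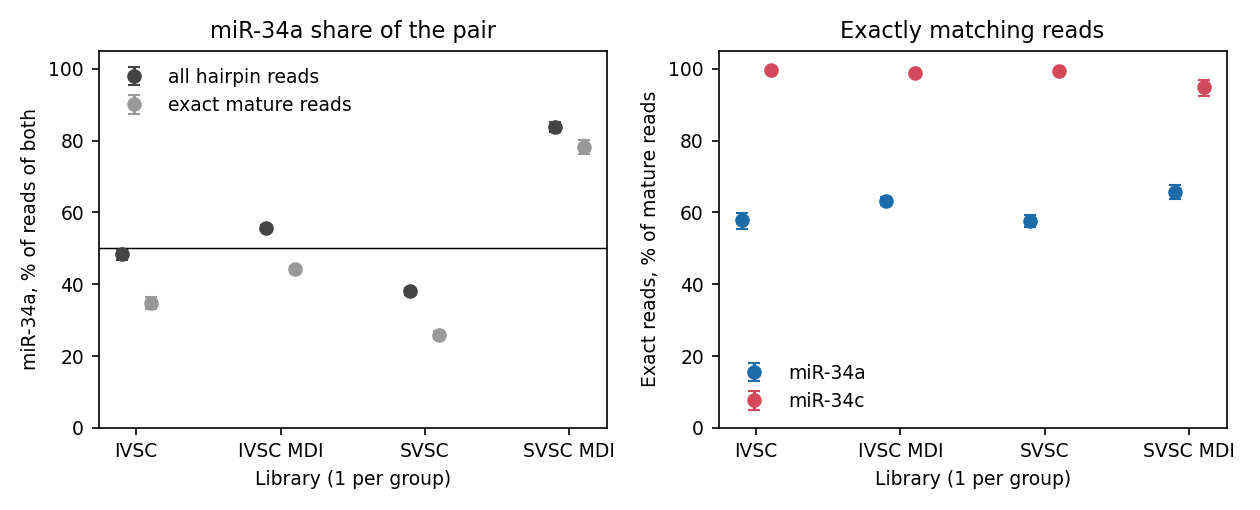
Left, percent of the reads of both members that belong to miR-34a, on all hairpin reads (dark) and on exact mature reads (grey); right, exact reads as a percent of mature reads for miR-34a (blue) and miR-34c (red); 1 library per group, error lines are exact 95% binomial intervals. The miR-34a share of all reads runs from 38.1% in SVSC to 83.9% in SVSC MDI, and its exact share from 57.5% to 65.7%, against 95.01% to 99.6% for miR-34c.

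Other miRNAs that p53 is known to raise, by transcription or by processing, were examined from a list of 13, of which 9 were tested in both MDI comparisons. In IVSC, 2 of the 9 rose and 1 fell, where 16.4% of all 152 miRNAs were called higher and 23.7% lower, and the median log2 ratio was 0.15 beside -0.04 over all 152. miR-145, which is also typical of contractile smooth muscle cells, rose 5.30-fold (5.21 to 5.40), and miR-149 rose 3.52-fold (2.92 to 4.27), from 140 to 551 reads. miR-215, which shares its seed with miR-192, fell 2.35-fold (1.78 to 3.14), and under all reads it stayed below 10 CPM and was not tested. In SVSC, 2 rose and 3 fell, where 34.2% of all 146 miRNAs were called higher and 21.9% lower. The median was 0.36 beside 0.41 over all 146, and that of the list turned negative under the other 4 scalings. miR-145 rose 8.31-fold (8.14 to 8.49) and miR-149 11.2-fold (8.67 to 14.5). miR-107 fell 2.41-fold (1.97 to 2.99), and miR-215 had 259 reads in SVSC and 3 in SVSC MDI, a ratio of 0.0807 (0.0165 to 0.239). The list thus held members of both directions in each culture.

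miRNAs reported to act on p53 or its regulators made up a list of 10, of which 7 were tested in both MDI comparisons. In IVSC 1 rose and 1 fell, with 16.4% of all 152 miRNAs called higher and 23.7% lower, and the median was 0.52 beside -0.04 over all 152. miR-125a, whose close relative miR-125b represses p53, rose 2.41-fold (2.29 to 2.53), and miR-122, best known from liver, fell 3.38-fold (2.40 to 4.82), though under DESeq2 scaling and all reads it stayed below 10 CPM and was not tested. In SVSC 3 rose and 2 fell, with 34.2% of all 146 miRNAs called higher and 21.9% lower. The median was 0.11 beside 0.41 over all 146, and it was negative under the other 4 scalings. miR-125a rose 4.85-fold (4.54 to 5.18) and miR-29c 2.45-fold (1.91 to 3.13), while miR-125b, named after its values were seen, rose 2.33-fold (2.27 to 2.39). miR-29c and miR-125b were called under none of the other 4 scalings, which each left miR-125a as the 1 member that rose. miR-30d fell 2.39-fold (2.34 to 2.44), and miR-122 fell 12.4-fold (5.27 to 38.4), to 5 reads. Only 20 of the 432 miR-122 reads in SVSC and 17 of the 139 in IVSC were mature. On mature reads it stayed below 10 CPM and was not tested in either culture.

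The miRNAs of nearest pattern were found for each member from the log2 CPM over the 4 libraries, centred on their mean, by the root mean square difference among 155 miRNAs. This is a description over 4 values. Nearest to miR-34a were miR-30c (0.288), miR-23b (0.294), miR-125a (0.300) and miR-331 (0.301), each higher in both MDI libraries than in either undifferentiated one. Nearest to miR-34c were miR-29b (0.248), miR-362 (0.291), miR-1285 (0.357) and miR-30d (0.360). miR-29b, of a family that represses collagens, had 659.7 CPM before and 1108 CPM after MDI in IVSC, and 917 and 621 CPM in SVSC. Unlike those of miR-34c, few hairpin reads of miR-29b and miR-1285 lay on the listed mature sequence. In IVSC it held 546 of 8743 reads for miR-29b and 2 of 372 for miR-1285. For miR-362 it held 261 of 390 reads there, and for miR-30d 59098 of 60563. miR-30d had 4570.04 and 6484 CPM in IVSC, and 9264 and 3876 CPM in SVSC. Of 154 miRNAs, miR-34c ranked 82 by nearness to miR-34a, and miR-34a ranked 106 by nearness to miR-34c, at a distance of 1.16.

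Of both members, miR-34c matched an entry in the RefSeq gene table of assembly Sscrofa11.1, under the symbol MIR34C-1. In that annotation it overlaps BTG4, an antiproliferative gene of oocytes, and C9H11orf88, and LAYN is the next gene on one side. The assembly differs from that named in the tables, so no position is given.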

How the data were processed

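Members and lists were chosen with earlier results of these data known. Small RNA of 16 to 35 nt was sequenced for 36 cycles after 12 PCR cycles, per the labels' protocols. The authors deposited read counts per feature, which per the file headers come from pig hairpins, Ensembl non-coding RNAs of Sscrofa 9.61, piRNAs and Rfam. The processing notes name mm9 with no role, and no source used here gives the aligner, mismatches or trimming tool. In the deposited SVSC table, 1 Rfam cell of the unique mature reads is damaged, and only hairpin entries of that column were used.

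The total reads of a hairpin were used, copies of a miRNA counted once (largest copy plus uniquely matching mature reads of the others). Counts were scaled to miRNA reads, and 3 reads stood in for 0. A miRNA was compared if it reached 10 CPM in either library. Intervals are Clopper-Pearson at 95%, those of odds ratios exact conditional (SciPy 1.17.1, Python 3.11.15). The interval of a difference between responses was computed from the counting variance. The 4 other scalings were TMM, DESeq2 size factors, all reads, and miRNA reads without miR-21. Fits over 4 libraries used edgeR 4.0.16 (filterByExpr, TMM, Benjamini-Hochberg at 0.05) and DESeq2 1.42.0 in R 4.3.3, and the SE was worked back from F. Both steps were run on simulated data. For the edgeR fit these were additive and of lower dispersion than the real counts. They cannot show how the fit behaves where the cultures respond in opposite directions, as for miR-34c. Named miRNAs were the members, the 4 nearest patterns of each, and up to 4 called members per list and comparison by size. Counts were 428 to 7576 reads for a member. A count of 3 reads equals 0.167 to 1.17 CPM.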

Additional observations from a re-analysis of the deposited data

Results flagged for a closer look

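The MDI response of miR-34c ran in opposite directions in the 2 cultures, with 1 library per group. The log2 ratio in SVSC minus that in IVSC was -2.27, and the difference was not tested against any spread between replicates.

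Rfam entries of the mir-34 family, which the comparisons do not use, held 10 uniquely matching reads in IVSC MDI, above the 0 in IVSC and above the limit of 3 reads that a count of 0 allows. Of these, 9 lay on 1 entry. The same entries held 5 in SVSC and 0 in SVSC MDI. No source used here names the species or family member behind these entries.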

How the results depend on the processing

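With 1 library per group, no replicate could be left out, and leaving a library out of the fit over 4 libraries leaves no residual degree of freedom. No paired analysis was possible because each group has 1 library and no replicate number in the labels. The ratio of miR-34c in SVSC MDI against SVSC was past 2-fold lower under TMM (0.376), DESeq2 size factors (0.397), all reads (0.381), without miR-21 (0.404) and on exact reads (0.383). That in SVSC against IVSC was past 2-fold higher under the same (2.48, 2.52, 2.22, 2.46 and 2.21) and with copies summed (2.07). The difference of the MDI effect of miR-34a changed sign under the same 5 (-0.067, -0.0083, -0.31, -0.085 and -0.024). On exact reads the ratio of miR-34a to miR-34c was 0.530 (IVSC), 0.790 (IVSC MDI, reversed), 0.348 (SVSC) and 3.61 (SVSC MDI). The exact share of miR-34c over total reads, an alternative chosen after seeing the data, was 98.4% in IVSC MDI and 98.9% in SVSC. In the edgeR fit, miR-34a had a log2 ratio of 1.80 with no culture factor and was not called. The log2 ratio of miR-34c with MDI was -0.042 without a filter, and that with origin 0.018 on mature reads. Both stayed uncalled. The causes were not tested.

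Counts of called miRNAs moved by over 1.5 times in places. For IVSC, 36 were lower, against 21 (all reads), 23 (mature) and 19 (exact). For SVSC, 50 were higher, against 33 (all reads). For SVSC against IVSC, 11 were higher, against 24 (TMM), 28 (DESeq2), 24 (without miR-21), 7 (mature) and 18 (exact). For SVSC MDI against IVSC MDI, 26 were higher, against 7 (all reads) and 9 (exact), and 15 lower, against 29 (all reads) and 25 (without miR-21). The edgeR fit of MDI called 11 higher and 8 lower, against 12 and 5 without TMM, 9 and 10 with no filter, 18 and 13 on mature reads, 16 and 20 by DESeq2, and 0 and 0 without the culture factor, where 38 had an unadjusted p under 0.05. SVSC MDI, the shallowest library, limits both SVSC ratios after MDI.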
